A study of Mus musculus with 5 samples.

Results

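The Notch receptor genes Notch1, Notch2, Notch3 and Notch4, the ligand genes Dll1, Dll4, Jag1 and Jag2 and the target genes Hes1 and Hey1 were examined in forelimb buds of mouse embryos. Every probe set, a group of short array probes that reports 1 transcript, was taken if its only platform gene symbol was 1 of these names. All 10 genes were found, with 19 probe sets, among 18193 named genes and 45037 tested probe sets. RNA came from 5 embryonic samples of strain C57Bl/6 at E11.5, each hybridised to its own single-channel Affymetrix array. The labels give the genotype Sost-/-; Sostdc1-/- for 2 arrays, called double mutant here, and wild-type for the other 3, and state no treatment. The labels name no Cre or promoter for either allele, and Sost and Sostdc1 encode secreted antagonists of Wnt and BMP signalling. The study's title links the pair to digit number and to Gli3, and the only comparison in the design is double mutant against wild type.

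Notch receptors are cleaved when a Delta or Jagged ligand on a neighbouring cell binds them, and the freed intracellular part enters the nucleus, joins the DNA-binding protein Rbpj and switches on genes such as Hes1 and Hey1. Both targets encode basic helix-loop-helix repressors. In the limb bud Jag2 and Notch1 are known for their activity in the apical ectodermal ridge, the epithelial rim that drives outgrowth, where loss of Jag2 leaves the ridge enlarged and digits fused. Dll4 and Notch4 are best known from blood vessels, Notch3 from the mural cells that wrap them, and Jag1 from distal limb mesenchyme.

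Several facts of the whole set of arrays bear on every value below. Sost fell on 1 of 2 probe sets, from 6.47 ± 0.28 (SD, n = 3) to 4.29 ± 0.19 (SD, n = 2) log2 intensity, and Sostdc1 on 1 of 2, from 9.17 ± 0.24 to 6.82 ± 0.76. The other probe set of each gene was not called. For Sostdc1 its mean was 8.93 in double mutants against 8.89 in wild type. For Sost it lay lower without overlap, at 3.64 and 4.02 in double mutants against 5.13, 4.36 and 4.18 in wild type. Which of these probe sets lie in the deleted parts was not known here. Both double mutant arrays had high Xist (12.37 and 11.75, on 1436936_s_at) together with high Eif2s3y, a Y-linked gene (8.36 in each, on 1417210_at). Each wild type array had only 1 of the pair high. The design text states that embryos were not pooled, and these values leave it in doubt that the 2 double mutant arrays are 2 single embryos. Of the poly-A spike-ins, added before labelling, Dap, Thr, Phe and Lys were all higher in double mutants without overlap; Dap was at 7.09 ± 0.27 in double mutants against 3.30 ± 0.06 on the wild type arrays. The 3' minus 5' difference of Gapdh, which rises when RNA is less intact or labelled less fully, was 0.21 ± 0.08 and −0.10 ± 0.04 (exact permutation p = 0.1, two-sided, the smallest that 10 splits allow). For Actb the same measure gave 0.60 ± 0.07 against 0.37 ± 0.27 (two-sided exact permutation p = 0.4), with wild type replicate 3, at 0.68, above both double mutant arrays. Sample preparation and genotype therefore cannot be told apart in any difference given here. The labelled tissue was checked against 10 limb mesenchyme markers, and all 10 exceeded the median of the tested probe sets (5.41). All 14 endothelial and all 11 ectoderm and ridge markers did so too, so that this level cannot tell tissues apart. Of 2 hindlimb markers, Tbx4 (mean 7.42 over the arrays) exceeded it and Pitx1 (5.04) did not. Between the groups limma called 0 of the 10, against 14.7% of all genes. An unadjusted p under 0.05 was found for 1 (Twist1), against 28.7% of all genes.

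Levels are log2 intensities, and a difference is always double mutant minus wild type on that scale, with limma's standard error (SE). A probe set was called when its p, adjusted (Benjamini-Hochberg) across the 45037 probe sets, was under 0.05. By that rule 1 of the 19 Notch probe sets was higher and 2 were lower, together 15.8%. Among all probe sets 18.2% were called, 8.7% higher and 9.52% lower. The share called among the Notch genes lay close to that background, but it rests on 3 calls. Limma's unadjusted p was under 0.05 for 10 of the 19 (52.6%), against 32.2% of all probe sets. Of these, 6 were among the 8 ligand probe sets (75.0%), 3 among the 9 of receptors and 1 among the 2 of targets. The double mutant and wild type arrays did not overlap in 13 of the 19 (68.4%), 7 higher and 6 lower, against 45.2% of all probe sets (22.1% higher, 23.0% lower). With each gene read on its brightest probe set, 1 of the 10 was called higher and 1 lower, against 6.56% and 8.14% of all genes. Limma's unadjusted p was under 0.05 for 6 of the 10, against 28.7% of all genes. On these probe sets 7 genes did not overlap, 6 higher and 1 lower, against 43.2% of all genes (20.2% higher, 23.0% lower). The median difference was −0.02 for the 19 and −0.01 for all probe sets, while the median size of a difference, regardless of sign, was 0.38 and 0.18. The 3 calls were Dll4, Jag2 and Hey1, each on 1 probe set.

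**Figure D1:**
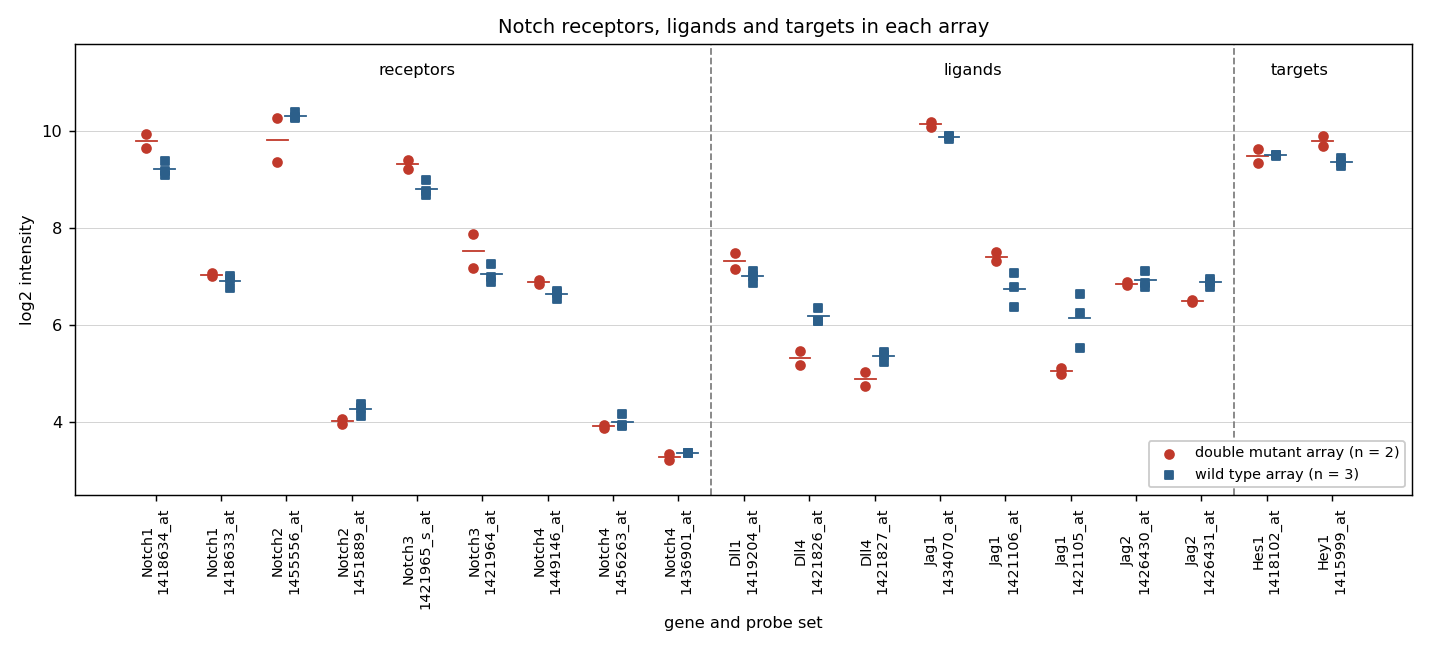
Log2 intensity (y axis) of each probe set of the 10 genes (x axis) in the 2 double mutant arrays (circles) and the 3 wild type arrays (squares), with short lines at the group means. The groups are clear of each other for, among others, Dll4 on both probe sets, Jag1 on all 3, Jag2 on 1426431_at, Notch1 and Notch3 on their brighter probe sets and Hey1, while the 2 double mutant arrays of Notch2 lie far apart on 1455556_at.

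Among the ligands, Dll4 had the most marked difference that passed the test. Dll4 encodes a Delta ligand of endothelial tip cells and arteries that restrains vessel sprouting. On 1421826_at its log2 intensity was 5.17 and 5.46 in the 2 double mutant arrays and 6.36, 6.09 and 6.08 in the 3 wild type arrays. Both double mutant values lay below all wild type values. The difference was −0.86 ± 0.14 (SE, adjusted p = 0.0251), a 1.82-fold lower intensity, with a 95% interval from −1.23 to −0.49. The dimmer probe set 1421827_at stood at 4.74 and 5.03 on the mutant arrays against 5.38, 5.24 and 5.43 on the wild type arrays. It separated the groups in the same direction but was not called (−0.47 ± 0.12, adjusted p = 0.0651), except when arrays were given equal medians (adjusted p = 0.0404) or quantile normalized (adjusted p = 0.0438). The call on 1421826_at was lost whichever array was left out, with differences of −0.72 or further below 0 and adjusted p of 0.0664 to 0.107. With the Gapdh 3' minus 5' difference as a covariate, which nearly follows genotype, its value was 0.07 (adjusted p = 0.961).

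The bases just before the Dll4 start are shown because Dll4 was the member called on its brightest probe set and lower on both, and those of Jag2 because it was the other ligand called. Capitals mark CACNAG, the N-box, and CACGNG, the class C box, both bound by Hes and Hey type repressors, searched on both strands with TGGGAA, the core bound by Rbpj. The sequences are RefSeq's, build GRCm38.p6, written 5′ to 3′ along the gene, and end at the base before the start.
Dll4, chr2:119325534-119325783, plus strand: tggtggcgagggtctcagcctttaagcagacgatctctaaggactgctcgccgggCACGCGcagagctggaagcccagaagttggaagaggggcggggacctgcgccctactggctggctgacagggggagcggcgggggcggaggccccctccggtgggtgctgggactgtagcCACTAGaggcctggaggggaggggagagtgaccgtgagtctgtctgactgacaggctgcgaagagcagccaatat
Jag2, chr12:112929496-112929745, minus strand: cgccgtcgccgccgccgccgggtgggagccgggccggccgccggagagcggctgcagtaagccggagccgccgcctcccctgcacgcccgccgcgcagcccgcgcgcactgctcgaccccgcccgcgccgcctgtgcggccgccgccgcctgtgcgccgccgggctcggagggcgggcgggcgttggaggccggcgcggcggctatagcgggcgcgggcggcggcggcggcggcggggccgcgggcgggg
The Dll4 window held 1 CACNAG and 1 CACGNG match, and the Jag2 window, at 87.2% G and C, held none of the 3 motifs. RefSeq windows were at hand for 8 of the 10 genes (9 windows, Dll1 having 2), the others being Hes1 and Hey1. Of the 9 windows, 4 held CACNAG and 6 held CACGNG, against 36.7% and 23.5% of 32851 windows of the same 250 bases. One motif can overlap the other, and both Dll1 windows are among the 6 with CACGNG. The 9 windows held 56.0% to 87.2% G and C. The 32851 were not matched for this, so enrichment was not tested. TGGGAA was in 0 of 9, against 21.6% of all. These are matches of letters, and the arrays carry no measure of binding.

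Markers of blood vessels were lower beside Dll4. Of 14 endothelial markers, each on its brightest probe set, 7 fell and 0 rose, against 8.14% and 6.56% of all 18193 genes. The median difference was −0.34 against −0.02 for all genes. The list was chosen with earlier results of these data known, so its count is not an independent test. Pecam1, an adhesion molecule of endothelial junctions, fell by 1.98 on the log2 scale, Tie1, an endothelial receptor kinase, by 0.96, and Cldn5, a tight junction protein, by 0.55. Cdh5 (−0.06 ± 0.09, adjusted p = 0.688) and Kdr (−0.03 ± 0.16, adjusted p = 0.922), which encode VE-cadherin and the main VEGF receptor, were not called. Egfl7 went the other way, with both double mutant arrays higher on its brightest probe set (0.10 ± 0.07, adjusted p = 0.402) and its 3 other probe sets called higher. All 14 exceeded the 5.41 median level, and their summed linear intensity was 3182 to 3221 on the mutant arrays against 4129 to 4238 on the wild type arrays. Of 5 arterial markers 1 was called, against 14.7% of all genes. It was the gap junction gene Gja4 (−0.82 ± 0.13), while Gja5, another gap junction gene, also lay lower without overlap (−1.18 ± 0.41, adjusted p = 0.137). Efnb2, an arterial ephrin, lay higher (0.23 ± 0.09, adjusted p = 0.173). The summed intensity of the 5, to which Efnb2 adds most, was 2407 to 2766 and 2321 to 2380, so that sum does not follow the 2 gap junction genes. Blood cell markers were also lower in sum. Of 5 erythroid genes 2 were called lower, against 8.14% of all genes. Their sum was 24295 to 27896 on the mutant arrays against 29583 to 32567 on the wild type arrays. Hba-x (−0.45 ± 0.06) and Hbb-bh1 (−0.02 ± 0.12, adjusted p = 0.919) add most to it. Of 6 macrophage genes limma called 0, with 2 at an unadjusted p under 0.05, against 14.7% and 28.7% of all genes. Their sum was 588 to 733 against 848 to 917. Csf1r (−0.63 ± 0.16) adds most there, and the others differed by −0.61 to 0.15. The part of endothelial or blood content in the Dll4 value was not tested, and in bulk tissue fewer cells of a type and less RNA per cell cannot be told apart. Over the 5 arrays, the genes whose mean-centred log2 values ran nearest to those of Dll4 among 18192 others were Sec14l3, Rngtt and Emb, with root mean square differences of 0.047, 0.061 and 0.062.

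**Figure D2:**
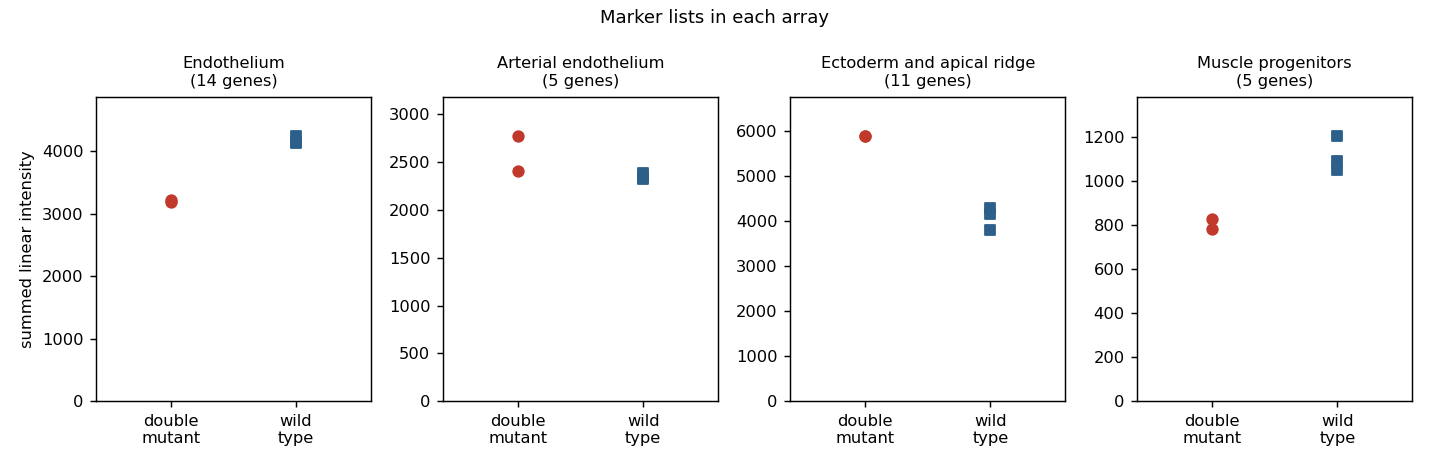
Summed linear intensity (y axis, from 0) of the genes of 4 marker lists in the 2 double mutant (circles) and 3 wild type (squares) arrays, each gene on its brightest probe set. Endothelial and muscle progenitor sums lie lower in double mutants and the sum for ectoderm and ridge lies higher, while the double mutant arterial sums, at 2407 and 2766, lie above the wild type maximum of 2380.

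Jag2 encodes the Jagged ligand of the apical ridge. Its dimmer probe set, 1426431_at, stood at 6.47 and 6.53 on the mutant arrays against 6.88, 6.79 and 6.96 on the wild type arrays, with no overlap. The difference was small and called, −0.38 ± 0.07 (SE, adjusted p = 0.0312), a 1.3-fold lower intensity. On the brighter 1426430_at the arrays overlapped, at 6.89 and 6.82 against 6.78, 6.87 and 7.12, a difference of −0.07 ± 0.12 (adjusted p = 0.717, 95% interval −0.39 to 0.25). The call on 1426431_at was lost without any 1 array (adjusted p from 0.0636 to 0.121) and with quantile normalization (adjusted p = 0.0991). Of 11 ridge and ectoderm markers, 6 rose and 0 fell, against 6.56% and 8.14% of all genes, with a median difference of 0.52. This list too was chosen with earlier results of these data known, so its count is not an independent test. Fgf8, the main FGF of the ridge, rose by 1.29 ± 0.25 (SE, adjusted p = 0.0364), and Epcam, an epithelial adhesion molecule, by 0.76 ± 0.05 (adjusted p = 0.0067). Krt5, a keratin of basal epithelium, lay lower without overlap (−0.38 ± 0.14, adjusted p = 0.157), and Wnt7a, a signal of the dorsal ectoderm, differed by 0.07 ± 0.13 (adjusted p = 0.762). The summed intensity of the 11 was 5884 to 5886 on the mutant arrays against 3802 to 4295 on the wild type arrays. Its part in the values of Jag2 and Notch1 was not tested.

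Jag1, a ligand of the distal limb mesenchyme, gave probe sets that pointed in opposite directions. On the brightest, 1434070_at, it stood at 10.20 and 10.08 on the mutant arrays against 9.91, 9.91 and 9.83 on the wild type arrays, a difference of 0.26 ± 0.06 (adjusted p = 0.0569). Both double mutant arrays were higher. On 1421106_at they were also higher, at 7.32 and 7.50 against 7.06, 6.78 and 6.36 (0.67 ± 0.23, adjusted p = 0.131). On the dimmest, 1421105_at, they were lower, at 5.11 and 4.99 against 6.65, 6.24 and 5.52 (−1.08 ± 0.36, adjusted p = 0.124). None of the 3 was called, although 1421105_at was with equal array medians (−1.17, adjusted p = 0.0366) and without wild type replicate 3 (−1.39, adjusted p = 0.041). Groups did not overlap on any of the 3, so the direction for Jag1 depended on which probe set was read.

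Dll1, a Delta ligand known from somites and from muscle progenitors, has 1 probe set, 1419204_at. It stood at 7.48 and 7.15 on the mutant arrays against 6.87, 7.02 and 7.12 on the wild type arrays. The lower double mutant array lay just above the highest wild type array, and the difference of 0.31 ± 0.13 was not called (adjusted p = 0.212, 95% interval −0.05 to 0.68). Among 5 measured muscle progenitor markers 1 was called, Myod1, a transcription factor of committed myoblasts, which fell by 1.10 ± 0.16 (adjusted p = 0.0194), against 14.7% of all genes called. The other 4 went both ways: Pax3, a factor of migrating progenitors, lay higher without overlap (0.79 ± 0.30, adjusted p = 0.16), Myf5 differed by 0.05, Lbx1 by −0.31 and Pax7 by −0.59. The summed intensity of the list, to which Myod1 adds most in wild type, was 782 to 829 on the mutant arrays against 1050 to 1205 on the wild type arrays.

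Of the receptors, 0 of 9 probe sets were called by limma, with 3 at an unadjusted p under 0.05 (33.3%, against 32.2% of all probe sets), all higher. Notch1, the receptor of the ridge and of endothelium, came nearest. On 1418634_at it was 9.94 and 9.66 on the mutant arrays against 9.18, 9.10 and 9.38 on the wild type arrays, so that both double mutant arrays lay above the wild type. The difference was 0.58 ± 0.13 (adjusted p = 0.0531), a 1.5-fold higher intensity, with a 95% interval from 0.22 to 0.94. It was called when quantile normalized (adjusted p = 0.0366), with a variance trend (adjusted p = 0.0496), with robust moderation (adjusted p = 0.0499) and among probe sets above the median level alone (adjusted p = 0.0312). The second Notch1 probe set, 1418633_at, gave 7.01 and 7.07 against 7.01, 6.76 and 6.95, a difference of 0.13 ± 0.09 (adjusted p = 0.385).

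Notch3, the receptor of mural cells, was similar. On 1421965_s_at its values were 9.40 and 9.23 on the mutant arrays against 8.76, 8.69 and 8.99 on the wild type arrays, again without overlap. The difference was 0.50 ± 0.12 (adjusted p = 0.0569), and it passed the threshold when quantile normalized (adjusted p = 0.0387), among probe sets above the median level (adjusted p = 0.035) or without wild type replicate 3 (adjusted p = 0.0491). The other probe set, 1421964_at, gave 7.88 and 7.17 against 6.99, 6.90 and 7.25, with a like difference of 0.48 but an SE of 0.25 (adjusted p = 0.289). Of 5 mural cell markers limma called 0, with 1 (Rgs5) at an unadjusted p under 0.05, against 14.7% and 28.7% of all genes. Their summed intensity overlapped between groups, at 3016 to 4363 and 3833 to 4486.

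Notch2, a receptor expressed widely in embryonic mesenchyme, was set apart by 1 array. On 1455556_at double mutant replicate 1 stood at 10.27, among the wild type values of 10.39, 10.27 and 10.29, while double mutant replicate 2 stood at 9.37. The difference of −0.50 ± 0.29 was not called (adjusted p = 0.32). Without double mutant replicate 2 it was −0.05, and without double mutant replicate 1 it was −0.95 (adjusted p = 0.0511). A dim second probe set, 1451889_at, gave 3.97 and 4.06 against 4.29, 4.37 and 4.12 (−0.25 ± 0.09, adjusted p = 0.159).

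Notch4, the endothelial receptor, was measured mainly on 1449146_at, at 6.85 and 6.94 on the mutant arrays against 6.54, 6.71 and 6.66 on the wild type arrays. Both double mutant arrays were higher, by 0.26 ± 0.07 (adjusted p = 0.0859, 95% interval 0.06 to 0.46), which is the direction opposite to that of Dll4. The 2 other Notch4 probe sets were dim, at 3.87 to 4.16 and 3.21 to 3.37 over the 5 arrays, and differed by −0.10 and −0.09.

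**Figure D3:**
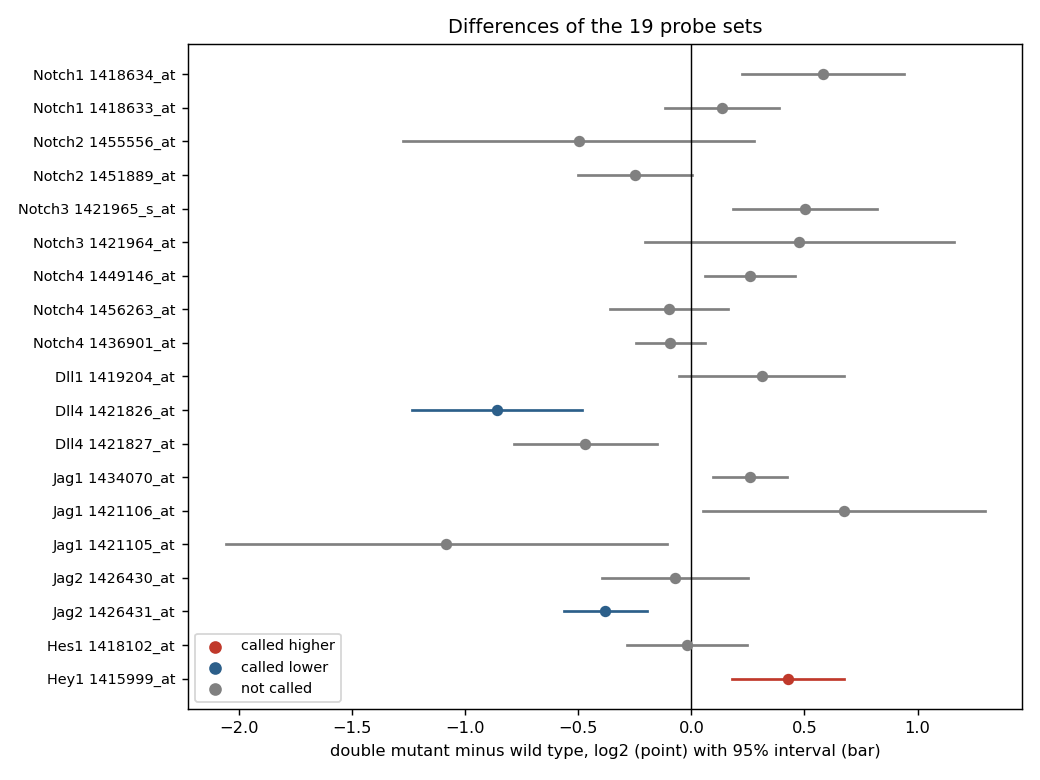
Difference between double mutant and wild type (x axis, log2) for each of the 19 probe sets (y axis), with points at limma's estimate and bars for its 95% interval, coloured by call at an adjusted p under 0.05. Dll4 on 1421826_at and Jag2 on 1426431_at were called lower and Hey1 higher, and the widest intervals are those of Jag1 on 1421105_at and Notch2 on 1455556_at.

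Of the 2 target genes, 1 was called, against 14.7% of all genes, and 2 genes are too few to set against that share. Hey1, a repressor induced by Notch in vessels and mesenchyme, stood at 9.69 and 9.89 on the mutant arrays against 9.45, 9.28 and 9.37 on the wild type arrays. Both double mutant arrays were higher, and the difference of 0.43 ± 0.09 was called (SE, adjusted p = 0.0461, 95% interval 0.18 to 0.67), a 1.35-fold higher intensity. The call was lost with equal array medians (0.34, adjusted p = 0.107) and without any 1 array (0.33 to 0.53, adjusted p from 0.0761 to 0.154). Hes1, a repressor that also responds to signals other than Notch, stood at 9.35 and 9.63 in double mutants, on either side of the wild type values of 9.52, 9.52 and 9.49. Its difference was −0.02 ± 0.10 (adjusted p = 0.913), with a 95% interval from −0.28 to 0.25. The sign of the Hes1 difference changed with quantile normalization and without double mutant replicate 1. The difference between the responses of the 2 genes was not tested.

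The wider pathway was read from a list of 55 genes by role, of which 51 were measured, each on its brightest probe set. Of these 6 rose, 5 fell and 40 were not called, together 21.6% called against 14.7% of all 18193 genes, with a median difference of 0.03. The fringe and other glycosyltransferase genes, whose enzymes put sugars on Notch, had 1 call of 5, against 14.7% of all genes. Pofut1, which adds fucose to the receptor, rose by 0.46 ± 0.09 (adjusted p = 0.039), while its dimmest probe set was called lower (−1.42). Lfng, the fringe gene of segmenting somites, stood at 6.53 and 6.50 on the mutant arrays against 6.86, 6.87 and 7.10 on the wild type arrays, a difference of −0.43 ± 0.10 (adjusted p = 0.0523), and its dimmer probe set was called lower (−1.06 ± 0.11, adjusted p = 0.0108).

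Dlk1 is a Delta-like protein without the usual receptor-binding domain. It was the only 1 of the 6 ligand-like genes called on its brightest probe set, against 14.7% of all genes. It stood at 9.26 and 9.48 on the mutant arrays against 11.21, 11.02 and 11.27 on the wild type arrays. The difference was −1.80 ± 0.11 (SE, adjusted p = 0.0064), a 3.48-fold lower intensity, and its second probe set was also called lower (−0.74 ± 0.06, adjusted p = 0.0080). The Dlk1 call was lost without double mutant replicate 1 or wild type replicate 2 (adjusted p = 0.0511 and 0.0584), with differences of −1.91 to −1.69 over the arrays left out in turn. Egfl7, a secreted vessel protein on both the ligand-like and the endothelial list and named outside the naming rule, was called higher on its 3 dimmer probe sets (0.30, 0.67 and 0.55), with 0.10 ± 0.07 on the brightest (adjusted p = 0.402). Dll3, a Delta protein that acts within the cell rather than on neighbours, differed by −0.06 ± 0.12 (adjusted p = 0.752). Neurl1b, one of 4 genes for ubiquitin ligases that help ligands pull on receptors, rose by 0.33 ± 0.06 (adjusted p = 0.0317), a call lost with equal medians, quantile normalization and a variance trend (adjusted p = 0.183, 0.14 and 0.0546).

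Among 7 protease genes, those of the enzymes that cut the receptor, 1 rose and 1 fell, against 6.56% and 8.14% of all genes. Ncstn, the substrate-binding subunit of gamma-secretase, fell by 2.34 ± 0.10 (adjusted p = 0.0053) on its brightest probe set, from 7.75, 7.75 and 7.98 to 5.54 and 5.44, but rose on a dimmer one (1.23 ± 0.19, adjusted p = 0.0219). Aph1b, another subunit of that enzyme, rose on both of its probe sets, by 2.07 ± 0.12 and 1.40 ± 0.06. Adam10, the sheddase that makes the first cut, stood at 10.63 and 10.63 on the mutant arrays against 10.68, 10.56 and 10.63 on the wild type arrays (0.01 ± 0.06, adjusted p = 0.939). Its next probe sets by brightness were called lower (−1.54 and −3.60), and Adam10 is named outside the naming rule because its probe sets disagreed.

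Within the nuclear complex the same split was seen for Rbpj, the DNA-binding partner of cleaved Notch. On the brightest probe set Rbpj stood at 10.36 and 10.06 on the mutant arrays against 10.25, 10.18 and 10.27 on the wild type arrays (−0.03 ± 0.11, adjusted p = 0.871). Both dimmer probe sets were called lower, by −0.82 ± 0.06 and −0.85 ± 0.05. Of 7 genes of the complex 0 rose and 2 fell, against 6.56% and 8.14% of all genes. The 2 were the coactivator genes Maml2 (−0.54 ± 0.11, at a dim 3.13 against 3.68) and Crebbp (−0.43 ± 0.09, adjusted p = 0.0466). The other Crebbp probe sets were not called and differed by 0.79, −0.19 and −0.90. Ctbp1, a corepressor gene, rose by 0.44 ± 0.09 (adjusted p = 0.0382) as 1 of 5 corepressors called, against 14.7% of all genes.

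Genes for receptor turnover and inhibition gave 3 calls of 10, against 14.7% of all genes called. Numb, an endocytic inhibitor of Notch, rose by 0.44 ± 0.06 (adjusted p = 0.0194), with its dimmer probe set called lower (−2.13 ± 0.24). Itch, a ubiquitin ligase that marks Notch for breakdown, was higher on all 4 of its probe sets, by 0.30 to 2.03, each called. The kinase gene Aak1, which regulates endocytosis, fell by 0.42 ± 0.09 (adjusted p = 0.0436) on its brightest probe set. Its other probe sets were not called, with differences from −1.48 to 0.04. Nrarp, a target that feeds back to limit Notch, stood at 9.44 and 9.74 against 9.29, 9.27 and 9.35 on its brightest probe set (0.28 ± 0.11, adjusted p = 0.157) and was called lower on the other (−1.08 ± 0.10, adjusted p = 0.0093). With equal array medians the calls of Pofut1, Ctbp1 and Itch on their brightest probe sets were lost, as was that of Neurl1b (adjusted p = 0.0903, 0.108, 0.217 and 0.183). The dimmer Itch probe sets were not examined with that scaling.

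The other target genes of the Hes and Hey families gave 0 calls of 7 on the brightest probe set by limma, against 14.7% of all genes. An unadjusted p under 0.05, found for 28.7% of all genes, was found for 1 of the 7. That gene, Hes6, a relative that counters Hes1 in neural cells and is named outside the naming rule, lay higher on its brightest probe set (0.28 ± 0.09, adjusted p = 0.119) and was called lower on the other (−0.57 ± 0.08, adjusted p = 0.0165). Hey2 stood at 4.81 ± 0.18 (SD, n = 2) on the mutant arrays against 4.64 ± 0.07 (SD, n = 3) on the wild type arrays (adjusted p = 0.33). Heyl stood at 4.97 ± 0.02 and 5.07 ± 0.19 (adjusted p = 0.628) and Hes5, a target of neural progenitors, at 5.11 ± 0.08 and 5.20 ± 0.02 (adjusted p = 0.38). Hey2, Heyl and Hes5 were dim, under the 5.41 median, which limits what the arrays can show of them.

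Over the wider list, calls on the second brightest probe set were 4 higher and 9 lower among the 33 genes that have one. On the brightest they were 6 and 5 among all 51 genes. Ctbp1, Neurl1b and Maml2, called on the brightest, have 1 probe set each and drop out of the 33, so these counts cover unlike sets. Over all genes, calls were 1194 higher and 1481 lower among 18193 on the brightest. On the second brightest they were 624 higher and 1473 lower among the 9010 genes that have one, again an unlike set. Probe sets called in both directions were found for Ncstn, Numb and Pofut1, 9.09% of the 33 genes with more than 1 probe set, and for 5.05% of all 9010 such genes. None of the 7 Notch receptor and ligand genes with more than 1 probe set was called both ways. That could not have come out otherwise, because none of them had more than 1 probe set called. Jag1 separated the groups in both directions without a call. Beside these splits stands the Gapdh 3' minus 5' difference given above. Its part in them was not tested, and where each probe set lies in its transcript was not examined.

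**Figure D4:**
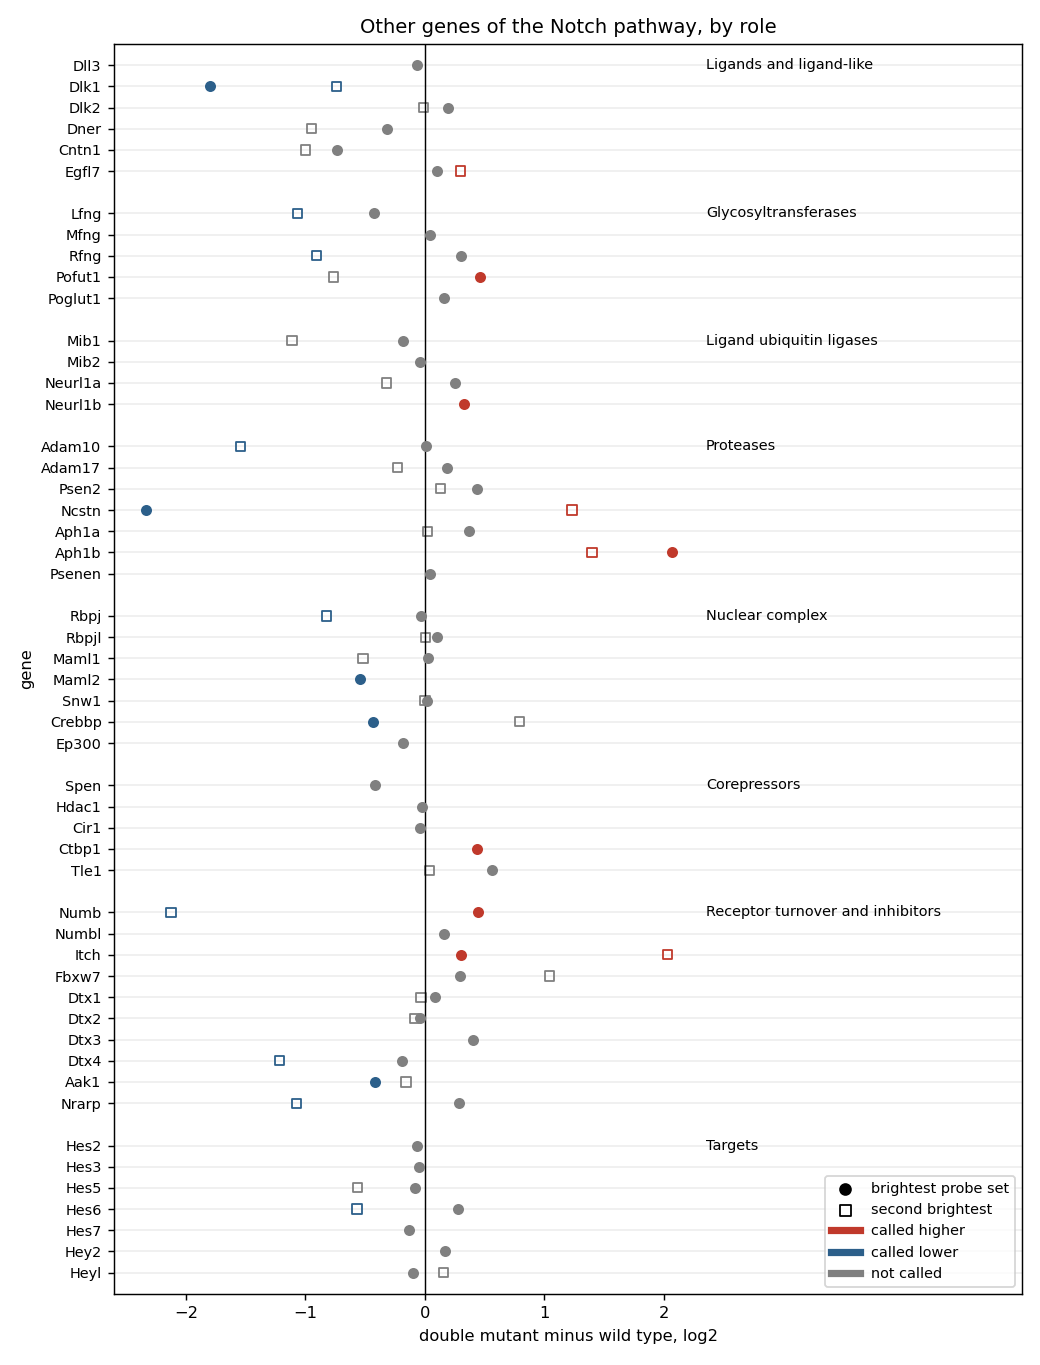
Difference between double mutant and wild type (x axis, log2) for the 51 measured genes of the wider list (y axis), grouped by role, on the brightest probe set (filled circles) and on the second brightest (open squares), coloured by call. Many squares lie left of their circles, as for Adam10, Numb, Rbpj and Nrarp, while Dlk1 lies low and Aph1b and Itch high on both.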

How the data were processed

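The deposited values were linear intensities, 1 per probe set and array, from 4.82 to 22950.5 with array medians of 39.4 to 44.4. RMA and limma are the tools listed per the submitters' processing notes, without version, role or order, and how RMA's log2 output became linear is not given in the sources used here. Per the labels, total RNA was biotin labelled with a kit of 2 amplification rounds.

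Values were used as deposited, after log2. Of 45101 probe sets 64 controls were left out and no level filter was set. Gene symbols came from the platform annotation (34945 probe sets with 1 symbol, 932 with several, 9160 with none), and 0 changed against the GRCm38.p6 gene table. Where 1 value per gene was needed, the brightest probe set was taken.

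The model was limma 3.58.1 (R 4.3.3) with 1 mean per genotype, no covariate, eBayes without trend, two-sided, with Benjamini-Hochberg adjustment over all tested probe sets (3 residual and 1.29 prior degrees of freedom). The fit was tested on simulated data, which cannot tell sample preparation from genotype in these arrays. The design text describes unpooled embryos, which the Xist and Y-linked values put in doubt for the double mutants, and the number of arrays limits the precision. The text names every probe set of the 10 genes, 8 fixed genes of the wider list and every gene of it called on its brightest probe set. Members and lists were chosen with earlier results of these data known. Alternatives were other scalings, moderation, filters, covariates and arrays left out.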

Additional observations from a re-analysis of the deposited data

Results flagged for a closer look

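The poly-A spike-in Dap, a bacterial transcript outside the measurement of mouse genes, was 3.79 higher in double mutants than in wild type on the log2 scale, at 6.90 and 7.28 against 3.31, 3.23 and 3.36. The other poly-A spike-ins were higher too, Thr by 1.73, Phe by 1.81 and Lys by 1.55, each without overlap. Its wild type level lay near that of Trpn, a control for an absent transcript (3.07 ± 0.02), and the part of the spike-ins in the values of the Notch genes was not tested.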

How the results depend on the processing

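With 2 arrays against 3, power was low and the calls near the threshold moved. Dll4 on 1421826_at, Jag2 on 1426431_at and Hey1 kept their direction under every alternative tried, apart from Dll4 with the Gapdh 3' minus 5' covariate. Among the 19 probe sets, calls were 1 higher and 2 lower. They became 0 and 4 with equal array medians, 3 and 2 with quantile normalization or with probe sets above the median level alone, and 2 and 2 with a variance trend or robust moderation. On the brightest probe set, calls of 1 higher and 1 lower became 0 and 1, 3 and 1, and 2 and 1 in the same order. On the second brightest, an alternative chosen after seeing the data, 0 were higher. Hey1, the gene called higher, has 1 probe set and so no value there. Wider pathway calls of 6 higher and 5 lower became 2 higher with equal medians, 3 lower without shared-probe suffixes and 13 lower with the mean of all probe sets per gene. On the second brightest, which only 33 of the genes have, 9 were lower. Without shared-probe suffixes 2752 probe sets were called lower in all, against 4287 of a larger set.

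The replicate numbers do not pair the samples by any label: deviations from group means correlated at 0.0895 and 0.12 for same-numbered arrays, with only 2 pairs. With the replicate block, calls were 0 and 0 for the Notch probe sets, on all or on the brightest, 1 and 1 for the wider genes, and 1022 higher and 1329 lower in all. With the Gapdh covariate, which nearly follows genotype, limma called 0 in every list, with 4259 probe sets (2 of the 19) at an unadjusted p under 0.05. Differences that reversed under that covariate were Notch1 on 1418634_at (−0.23), Notch2 on 1451889_at (0.15), Notch3 on 1421965_s_at and 1421964_at (−0.14 and −1.23), Dll1 (−0.65), Dll4 (0.0656 and 0.0130), Jag1 on 1421105_at (0.23), Hes1 (0.56), Dll3 (0.46), Maml2 (0.0357) and Heyl (0.0065). Jag2 on 1426430_at reversed with quantile normalization (0.0026) and the block (0.0275), and Hes1 with quantile normalization (0.0045). The cause of these changes was not tested.

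With 1 array left out in turn, calls ranged from 0 to 1 higher and 0 to 1 lower for the Notch probe sets, 0 to 1 and 0 to 0 on the brightest, 0 to 5 and 0 to 4 for the wider genes, and 0 to 1963 and 0 to 3198 in all. The total was 0 without double mutant replicate 1 or wild type replicate 2, although limma's unadjusted p was under 0.05 for 14059 and 11115. Differences that changed sign ranged from −0.14 to 0.0275 for Jag2 on 1426430_at, −0.16 to 0.12 for Hes1, −0.24 to 0.11 for Dll3, −0.18 to 0.12 for Rbpj and −0.16 to 0.0097 for Heyl. Levels near that of the absent control Trpn (3.07 in wild type) limit what the dimmest probe sets can show.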
